A study of Mus musculus with 8 samples.

Results

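The collagen genes of the mouse were followed through RNA sequencing of embryonic fibroblasts that carried either an empty vector or a vector for wild-type YAP. A gene was counted as a collagen when its whole name in the deposited table was Col, a number, the letter a and a number, which found 44 of 48641 listed genes, belonging to 27 collagen types. The 8 libraries came from mouse embryonic fibroblasts (MEFs), cells cultured from mouse embryos, that had been transduced with lentivirus, grown with doxycycline and sorted by flow cytometry on the fluorescent protein of the vector. The EV group (empty vector) held 4 libraries and the YAP group (wild-type YAP fused to the reporter) held 4. The reporter was GFP in replicates 1 and 2 of each group and mCherry in the other 2. All groups shared lentiviral delivery, doxycycline and a fluorescent reporter. The promoter that drove the vectors, the strain and age of the embryos and whether replicates were separate cultures are not given in the sources used here, so p-values reflect only how far these libraries scatter, which may be technical.

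Collagens are secreted proteins in which chains wind around each other into a triple helix, and each gene encodes a chain. Fibrillar collagens (types I, II, III, V, XI, XXIV and XXVII) build the cable-like fibrils of connective tissue, collagen IV builds the sheet of basement membranes, and collagen VI forms beaded microfibrils around cells. FACIT collagens (fibril-associated collagens with interrupted triple helices) decorate the surface of fibrils, and the remaining types include the anchoring fibrils of collagen VII and the endostatin-bearing collagens XV and XVIII. Fibroblasts are a main source of collagens I, III, V and VI. YAP is a transcriptional co-activator restrained by the Hippo kinases that acts mainly through TEAD factors, and the study asked how its overexpression alters the transcriptome.

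Levels are FPKM, fragment counts scaled to transcript length and to the number of mapped fragments. Levels of different genes can thus be set side by side, but such comparisons depend on the quantification. An error after ± is the standard deviation over the 4 libraries of a group, and SE is a standard error of the fitted difference. Values listed per library run in the order of the replicate numbers. Yap1 read 88.5, 88.4, 93.2 and 92.2 FPKM across the EV libraries and 80.0, 80.7, 82.9 and 84.9 FPKM across those labelled YAP. Every YAP library lay below every EV library, and Yap1 was thus not higher under the YAP label (limma, adjusted p = 0.259). The labels do not name the species of the YAP sequence in the vector, so whether the mouse Yap1 value includes the vector's transcript is unknown. Cyr61, a well-known YAP target, was 467 ± 53.1 FPKM in EV and 859.6 ± 83.0 FPKM in YAP (adjusted p = 0.00273). "YAP" below means the libraries labelled YAP, and every direction rests on that label. Summed FPKM ranged from 733152 to 1018404 per library and 1 gene, Gm3788, held 13.5% to 29.1% of it, while factors from median ratios lay between 0.9895 and 1.011. Absolute depth is unknown. Bulk values cannot tell fewer cells of a type from less RNA per cell.

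Collagen transcripts were among the most abundant in these cells. Col1a1 and Col1a2, the chains of collagen I, ranked 18 and 30 among all genes by mean FPKM, and Col3a1, the chain of collagen III, ranked 42. Together these 3 genes made up 66.3% to 71.0% of all collagen FPKM in each library. Mean FPKM was at least 100 for 12 of the 44 genes and at least 10 for 20. The 29 genes that averaged 1 FPKM or more over all libraries were tested. The other 15 had a mean of at most 0.617 FPKM, and the highest value of any of them in any library was 2.04 FPKM, for Col26a1 in EV replicate 1. Of those 15 genes, 11 were listed at 0 in at least 1 library, and Col4a3 was listed at 0 in all 8. The untested genes were Col4a3, Col4a4, Col6a4, Col6a5, Col6a6, Col9a1, Col13a1, Col17a1, Col19a1, Col20a1, Col22a1, Col23a1, Col25a1, Col26a1 and Col28a1, among them the kidney-type chains of collagen IV and the epithelial transmembrane collagen XVII. Col24a1 and Col9a2 passed the minimum although their YAP mean was below 1 FPKM.

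**Figure D1:**
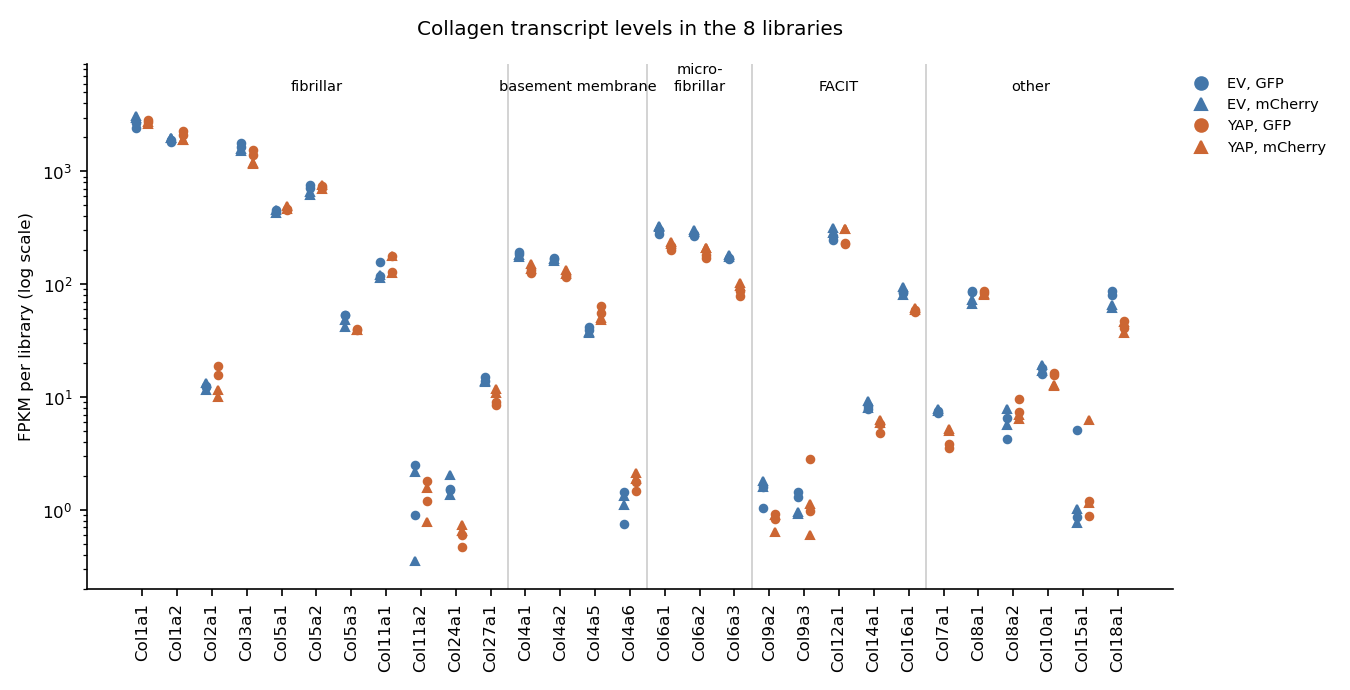
FPKM of the 29 tested collagens in each of the 8 libraries on a log axis, grouped by structural class, with colour for the vector and shape for the reporter. Col1a1, Col1a2 and Col3a1 are the top 3 genes, with no library under 1166 FPKM, and the 3 collagen VI chains separate EV from YAP without overlap.

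The comparison set the libraries labelled YAP against the EV libraries. Summed FPKM over all 44 genes was 9386 ± 337 in EV and 8810.1 ± 417 in YAP. The fibrillar class summed to 7667 ± 295 FPKM in EV and 7497 ± 470 FPKM in YAP, so its part of all collagen FPKM was 81.7% and 85.1%. Collagen VI summed to 766 ± 43.0 FPKM and 504 ± 45.7 FPKM, or 8.16% and 5.74% of collagen FPKM. Collagen IV summed to 389 ± 14.7 FPKM and 317 ± 15.2 FPKM, FACIT collagens to 377 ± 29.9 and 336 ± 47.2 FPKM, and the other types to 187 ± 21.4 and 156 ± 10.2 FPKM. These sums are descriptions and were not tested.

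Of the 29 tested collagens, 8 fell in YAP, 1 rose and 20 did not pass an adjusted p of 0.05 (limma on log2(FPKM + 0.5), Benjamini-Hochberg over 13276 genes). Over all tested genes 0.821% passed as lower and 0.934% as higher. The genes that fell were Col6a1, Col6a2, Col6a3, Col4a1, Col4a2, Col16a1, Col18a1 and Col7a1, and the gene that rose was Col4a5. By class the calls fell on 3 of 3 collagen VI genes, 3 of 4 collagen IV genes, 1 of 5 FACIT genes, 2 of 6 genes of other types and 0 of 11 fibrillar genes. The median log2 difference was -0.29 over the 29 collagens and -0.0038 over all tested genes, and 17 of the 29 were below 0, beside 50.7% of all tested genes. In 13 collagens all YAP libraries lay below all EV libraries and in 2 they lay above, beside 4.83% and 4.63% of all tested genes. At an unadjusted p under 0.05 there were 15 lower collagens and 1 higher, beside 14.5% of all tested genes in either direction.

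**Figure D2:**
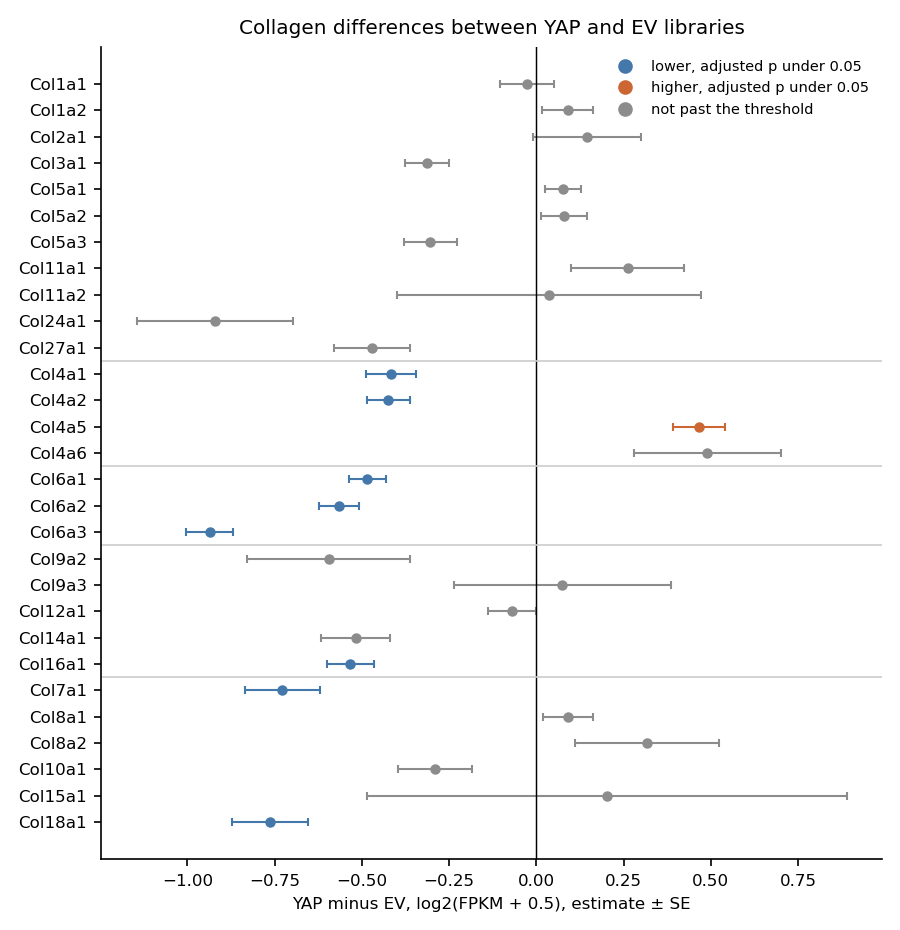
YAP minus EV difference of each tested collagen in log2(FPKM + 0.5), as the limma estimate with its SE, with colour for genes past an adjusted p of 0.05 and lines between structural classes. The collagen VI genes all lie left of 0, down to -0.94 for Col6a3, and the fibrillar genes lie on either side of 0 with none past the threshold.

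The calls differed in how they held when 1 library was left out. Col6a3 and Col6a2 passed without any 1 of the 8 libraries, with adjusted p of 0.0093 to 0.0203 and 0.0268 to 0.0449. Col6a1 passed without each except EV replicate 1, where its adjusted p was 0.0518. Col16a1 passed only without EV replicate 4 (0.0354) or YAP replicate 4 (0.0496), and reached 0.0764 otherwise. Col18a1 and Col4a2 passed only without YAP replicate 4 (0.0238 and 0.0411), and their adjusted p reached 0.0895 and 0.101 otherwise. Col4a1, Col7a1 and Col4a5 passed in none of the 8, with adjusted p of 0.0537 to 0.145, 0.0526 to 0.0952 and 0.0655 to 0.113. The number of lower calls was 2 without EV replicate 1, 4 without EV replicate 4, 6 without YAP replicate 4 and 3 without each of the remaining 5 libraries. No collagen passed as higher in any of these fits. The share of all tested genes that passed in these fits was not counted, so the counts have no background beside them. Log2 differences in these fits ran from -0.46 to -0.37 for Col4a1, -0.78 to -0.67 for Col7a1 and 0.41 to 0.50 for Col4a5.

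The smallest adjusted p values belonged to collagen VI, whose alpha1, alpha2 and alpha3 chains are encoded by Col6a1, Col6a2 and Col6a3 and combine in 1 trimer. The bases just upstream of the 3 genes are shown because these chains moved together, and the upstream bases of Col4a5 because it moved the other way. They come from the RefSeq promoter windows of mouse build GRCm38.p6, which matched 35 of the 44 collagens, and they lie upstream of both the RefSeq and the GENCODE start. The Col6a1 stretch is chr10:76726169-76726294 on the minus strand, the Col6a2 stretch chr10:76623631-76623880 on the minus strand, the Col6a3 stretch chr1:90843972-90844221 on the minus strand and the Col4a5 stretch chrX:141475169-141475384 on the plus strand. Sequences run 5′ to 3′, and capitals mark a GC box (GGGCGG or its reverse complement) in Col6a2 and a CCAAT box in Col4a5. No capitals stand in Col6a1 and Col6a3, whose printed stretches held none of the 5 motifs searched.
Col6a1: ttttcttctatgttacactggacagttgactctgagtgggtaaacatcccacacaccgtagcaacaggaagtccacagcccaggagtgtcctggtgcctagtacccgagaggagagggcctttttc
Col6a2: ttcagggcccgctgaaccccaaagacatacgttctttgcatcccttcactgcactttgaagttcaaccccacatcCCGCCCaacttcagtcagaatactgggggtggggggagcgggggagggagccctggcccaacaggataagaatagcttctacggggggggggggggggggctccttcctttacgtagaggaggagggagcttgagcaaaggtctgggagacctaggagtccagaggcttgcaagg
Col6a3: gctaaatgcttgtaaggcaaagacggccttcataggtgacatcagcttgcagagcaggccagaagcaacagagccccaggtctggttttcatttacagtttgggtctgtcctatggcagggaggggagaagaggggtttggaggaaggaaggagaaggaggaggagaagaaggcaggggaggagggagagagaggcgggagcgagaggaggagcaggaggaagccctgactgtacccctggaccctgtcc
Col4a5: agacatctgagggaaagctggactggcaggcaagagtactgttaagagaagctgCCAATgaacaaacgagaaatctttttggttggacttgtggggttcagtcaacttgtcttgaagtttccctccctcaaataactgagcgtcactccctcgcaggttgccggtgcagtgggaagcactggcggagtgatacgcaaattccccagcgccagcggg

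The motifs were searched on both strands of windows of 300 bases, 250 before the start and 50 after it. The TEAD core GGAATG was in the windows of 3 of 35 collagens (Col3a1, Col4a6 and Col20a1), in 0 of the 8 that fell, and in 14.7% of 32851 windows of all genes. The AP-1 motif TGANTCA was in 1 collagen window, that of Col6a1, 90 bases before its RefSeq start and outside the printed stretch, and in 7.81% of all windows. The GC box was in 22 collagen windows, 6 of them of genes that fell, and in 35.7% of all windows. The window of Col4a5 also held a GC box, 30 bases before its RefSeq start and outside the printed stretch. CCAAT was in 12 collagen windows, 5 of them of genes that fell, and in 37.4% of all windows, and TATAAA was in 5 collagen windows, 0 of them of genes that fell, and in 13.6% of all windows. The windows of Col4a1 and Col4a2 overlap, so a match can be counted for both. These are matches of letters in a short window and say nothing of binding.

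Col6a3 (ENSMUSG00000048126, chromosome 1, 90765923 to 90843971, minus strand) stood at 171, 169, 181 and 176 FPKM across the EV libraries and at 79.2, 86.9, 103 and 95.9 FPKM across the YAP libraries. The highest YAP library lay far below the lowest EV library. Mean FPKM fell by 47.6%, with a log2 difference of -0.94 (SE 0.068, adjusted p = 0.0023). Col6a2 (ENSMUSG00000020241, chromosome 10, 76595762 to 76623630, minus strand) stood at 278, 266, 301 and 289 FPKM in EV and at 169.8, 179.7, 211 and 208 FPKM in YAP. Its log2 difference was -0.57 (SE 0.057, adjusted p = 0.0079), again with no overlap. Col6a1 (ENSMUSG00000001119, chromosome 10, 76708792 to 76726168, minus strand) stood at 300.4, 279.8, 329.7 and 323 FPKM in EV and at 201, 216, 235 and 229 FPKM in YAP. Its log2 difference was -0.48 (SE 0.054, adjusted p = 0.0119), and every YAP library lay below every EV library. Col6a2 and Col6a1 lie on the same strand with 85161 bases between them, while Col6a3 is on another chromosome.

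Col6a3 stood lower relative to its partner chain in YAP. The Col6a3 to Col6a1 ratio of FPKM was 0.569, 0.604, 0.5503 and 0.545 in the EV libraries and 0.395, 0.402, 0.440 and 0.418 in the YAP libraries, a mean of 0.567 ± 0.0267 against 0.414 ± 0.0199. The groups did not overlap, and p was 0.0286 by an exact two-sided permutation test, which cannot go lower with 4 against 4 libraries. It was 0.2 after adjustment over the 7 chain ratios compared, which does not pass 0.05. The Col6a2 to Col6a1 ratio was 0.921 ± 0.0231 in EV and 0.871 ± 0.0375 in YAP, with overlap (exact p = 0.0857, adjusted 0.25). The remaining chains of the family that the name rule found, Col6a4, Col6a5 and Col6a6, were at most 0.245 FPKM in any library.

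**Figure D3:**
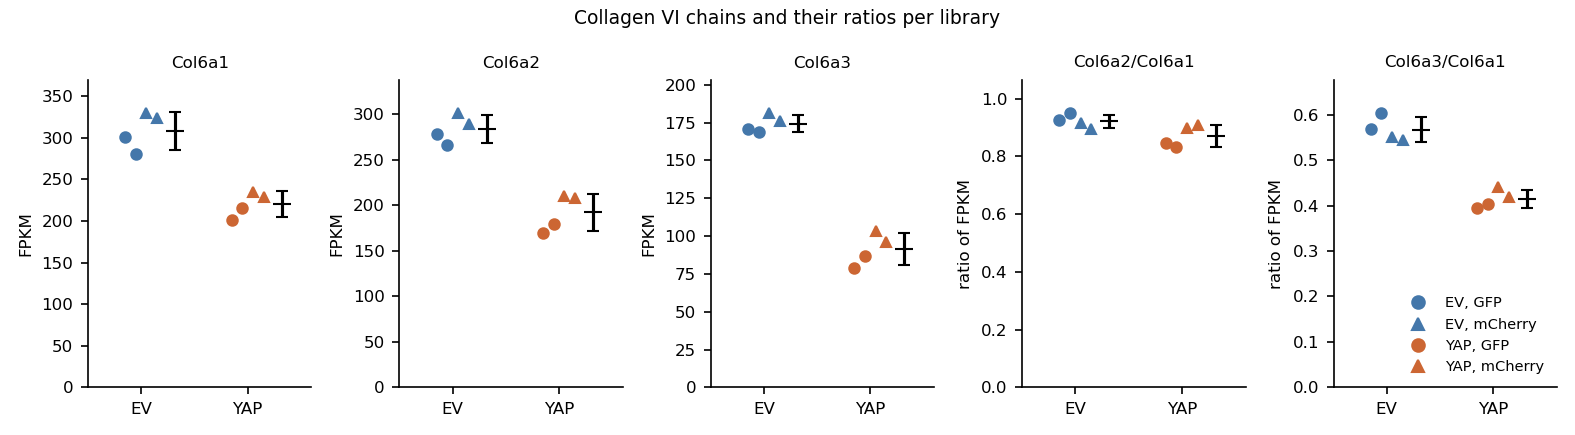
FPKM of the 3 collagen VI chains and the ratios Col6a2/Col6a1 and Col6a3/Col6a1 in each library, with group mean and SD beside the points and axes that start at 0. All 3 chains were lower in every YAP library than in every EV library, and Col6a3/Col6a1 was 0.567 ± 0.0267 in EV and 0.414 ± 0.0199 in YAP.

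The 5 tested genes whose log2 levels followed Col6a3 most closely over the 8 libraries were Angptl2 (r = 0.995), Spp1 (0.993), Trib2 (0.989), Col6a2 (0.987) and Auts2 (0.984). Spp1, which encodes the matrix protein osteopontin, was 1372 ± 50.8 FPKM in EV and 619.6 ± 112 FPKM in YAP. Among collagens Col6a1 followed at r = 0.978, Col4a2 at 0.975 and Col7a1 at 0.968, and Col4a5 had the most negative value at -0.94. Since Col6a3 separates the 2 groups, any gene that does so stands high in this order, so the values carry no p.

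Collagen IV moved in both directions. Col4a1 and Col4a2 encode the chains of the collagen IV network found in nearly all basement membranes, and both fell. Col4a1 (ENSMUSG00000031502, chromosome 8, 11198423 to 11312826, minus strand) stood at 193, 184, 182 and 173 FPKM in EV and at 126, 134, 138 and 149.8 FPKM in YAP. Its log2 difference was -0.42 (SE 0.072, adjusted p = 0.0423). Col4a2 (ENSMUSG00000031503, chromosome 8, 11312805 to 11449287, plus strand) stood at 171, 166, 169 and 159 FPKM in EV and at 116, 122, 124 and 133 FPKM in YAP. Its log2 difference was -0.42 (SE 0.062, adjusted p = 0.0255), and neither gene's groups overlapped. The Col4a1 to Col4a2 ratio was 1.10 ± 0.0232 in EV and 1.11 ± 0.0170 in YAP (exact permutation p = 0.686, adjusted 0.8). The 2 genes lie head to head and their annotated ends overlap by 22 bases on opposite strands. The kit keeps strand, and whether the authors' quantification used it was not given in the sources used here.

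Col4a5 and Col4a6, whose chains combine in a collagen IV trimer of some basement membranes, lie head to head on chromosome X with 1308 bases between them. Col4a5 (ENSMUSG00000031274, 141475385 to 141689234, plus strand) stood at 41.5, 39.0, 38.0 and 37.3 FPKM in EV and at 55.5, 63.5, 47.7 and 50.2 FPKM in YAP. All YAP libraries lay above all EV libraries, and the log2 difference was 0.47 (SE 0.075, adjusted p = 0.0335). Col4a6 was far less abundant, at 0.756, 1.44, 1.32 and 1.11 FPKM in EV and 1.48, 1.76, 1.87 and 2.11 FPKM in YAP. Its groups did not overlap either, and its log2 difference of 0.49 (SE 0.21) had an adjusted p of 0.351. Col4a3 and Col4a4, the partner chains of Col4a5 in the glomerular basement membrane, were listed at no more than 0.0952 FPKM in any library.

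Of the FACIT collagens, only Col16a1 passed the threshold. Col16a1 (ENSMUSG00000040690, chromosome 4, 130047840 to 130099283, plus strand) encodes collagen XVI and stood at 84.7, 83.6, 94.4 and 79.6 FPKM in EV and at 58.5, 57.0, 58.9 and 61.1 FPKM in YAP. The groups did not overlap, and the log2 difference was -0.53 (SE 0.069, adjusted p = 0.0169). Col14a1, which binds fibrils of collagen I, had a difference of similar size, from 8.33 ± 0.609 to 5.68 ± 0.635 FPKM, that missed the threshold (log2 -0.52, adjusted p = 0.0566), with no overlap. Col12a1, the most abundant FACIT gene, stood at 279.8 ± 29.8 FPKM in EV and 268 ± 45.8 FPKM in YAP (log2 -0.07, adjusted p = 0.692). The cartilage FACIT genes Col9a2 and Col9a3 were low, at 1.51 ± 0.330 and 1.15 ± 0.263 FPKM in EV and 0.819 ± 0.128 and 1.38 ± 0.972 FPKM in YAP, with adjusted p of 0.309 and 0.945.

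Of the remaining types, Col18a1 and Col7a1 fell. Col18a1 (ENSMUSG00000001435, chromosome 10, 77052178 to 77166548, minus strand) encodes collagen XVIII, a heparan sulfate proteoglycan of basement membranes that carries endostatin. It stood at 79.9, 87.2, 61.4 and 66.0 FPKM in EV and at 40.7, 47.5, 37.3 and 46.3 FPKM in YAP, without overlap, and its log2 difference was -0.76 (SE 0.109, adjusted p = 0.0240). Col7a1 (ENSMUSG00000025650, chromosome 9, 108953586 to 108984875, plus strand) encodes the anchoring fibril collagen of the skin. Its values were 7.51, 7.23, 7.47 and 7.89 FPKM in EV and 3.85, 3.52, 5.26 and 4.97 FPKM in YAP, without overlap, and its log2 difference was -0.73 (SE 0.107, adjusted p = 0.0263). The network-forming Col8a1 stood at 78.2 ± 9.95 FPKM in EV and 82.9 ± 2.88 FPKM in YAP (log2 0.09), and its partner Col8a2 at 6.06 ± 1.502 and 7.59 ± 1.46 FPKM (log2 0.32), neither past the threshold. The Col8a1 to Col8a2 ratio was 13.7 ± 4.92 in EV and 11.1 ± 1.55 in YAP (exact permutation p = 0.371, adjusted 0.52). Col10a1, a chain of hypertrophic cartilage, was 17.6 ± 1.28 and 14.3 ± 2.01 FPKM (log2 -0.29, adjusted p = 0.281). Col15a1, the relative of Col18a1, had 1 library per group far above the others, so its log2 difference of 0.20 had an SE of 0.69.

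None of the 11 fibrillar genes passed the threshold, beside 0.821% of all tested genes as lower and 0.934% as higher. Col1a1 stood at 2687, 2425, 3069 and 2951 FPKM in EV and at 2723, 2845, 2605 and 2719 FPKM in YAP, with a log2 difference of -0.03 (SE 0.078, adjusted p = 0.915). Col1a2 stood at 1896, 1825, 1968 and 1984 FPKM in EV and at 2087, 2292, 1899.8 and 1905 FPKM in YAP, with a log2 difference of 0.09 (SE 0.073, adjusted p = 0.639). The groups overlapped for both chains of collagen I. Col3a1 stood at 1780.5, 1652, 1587 and 1508 FPKM in EV and at 1403, 1532, 1166 and 1179 FPKM in YAP, with the YAP values mostly below and 1 EV library inside the YAP range (log2 -0.31, SE 0.063, adjusted p = 0.0699). The Col3a1 to Col1a1 ratio was 0.593 ± 0.0916 in EV and 0.484 ± 0.0509 in YAP (exact permutation p = 0.143, adjusted 0.25), and Col1a1 to Col1a2 was 1.45 ± 0.0988 and 1.34 ± 0.0807 (exact p = 0.143, adjusted 0.25). Col3a1 and Col5a2 are neighbours on chromosome 1, 24614 bases apart, with log2 differences of -0.31 and 0.08.

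Collagen V joins collagen I in fibrils. Col5a1 was 443 ± 13.4 FPKM in EV and 467 ± 16.6 FPKM in YAP, Col5a2 was 685 ± 60.5 and 722 ± 24.4 FPKM, and the ratio of Col5a1 to Col5a2 was 0.650 ± 0.0509 and 0.647 ± 0.0137 (exact permutation p = 0.943). Col5a3 stood at 49.1 ± 5.46 FPKM in EV and 39.5 ± 0.560 FPKM in YAP, and all YAP libraries lay below all EV libraries, but its adjusted p was 0.131. Col27a1, a fibrillar chain of cartilage and other matrices, was 14.05 ± 0.736 and 10.1 ± 1.57 FPKM (log2 -0.47, adjusted p = 0.101), and Col24a1, a chain of developing bone, 1.62 ± 0.301 and 0.613 ± 0.109 FPKM (log2 -0.92, adjusted p = 0.117), both without overlap. The cartilage chains Col2a1, Col11a1 and Col11a2 were at 12.3 ± 0.730, 127 ± 19.7 and 1.47 ± 1.01 FPKM in EV and at 14.1 ± 4.03, 153 ± 29.7 and 1.34 ± 0.451 FPKM in YAP, with adjusted p of 0.720, 0.523 and 0.986. Thus 6 collagens had groups that did not overlap yet missed the threshold, namely Col5a3, Col9a2, Col14a1, Col24a1 and Col27a1 below EV and Col4a6 above it.

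The reporter gave no collagen call of its own. For mCherry minus GFP, 0 of 29 collagens passed, beside 0.0301% of all tested genes as lower and 0.0603% as higher. An unadjusted p under 0.05 was reached by 7 collagens, beside 10.6% of all tested genes. Of these, Col6a1, Col6a2, Col6a3 and Col12a1 were higher in mCherry, and Col3a1, Col4a5 and Col8a1 were lower. The smallest adjusted p was 0.245, for Col12a1, whose log2 difference was 0.33. The difference between reporters in the YAP effect passed for 0 collagens, beside 0.0226% and 0.0452% of all tested genes, with 5 at an unadjusted p under 0.05 beside 9.81%. Its smallest adjusted p was 0.405, for Col2a1 at -0.66, where the YAP minus EV difference was 0.47 in GFP and -0.18 in mCherry. In Col1a1 and Col1a2 both YAP libraries lay above both EV libraries in GFP and below them in mCherry. Separation in opposite directions under the 2 reporters, counted either way round, was found in these 2 of 29 collagens and in 7.58% of all tested genes.

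Within GFP, 8 collagens were lower and 0 higher, beside 0.625% and 0.67% of all tested genes. These were the 3 collagen VI genes, Col4a1, Col4a2, Col7a1, Col18a1 and Col27a1. Within mCherry, 1 collagen, Col6a3, was lower and 0 were higher, beside 0.158% and 0.241% of all tested genes. Col6a3 had a difference of -1.03 (adjusted p = 0.0075) in GFP and -0.84 (adjusted p = 0.0205) in mCherry. Col6a2 had -0.64 and -0.49, Col6a1 -0.48 and -0.49, Col18a1 -0.92 and -0.61, and Col7a1 -0.91 and -0.54, and none of these differences between reporters passed the threshold. Each arm held 2 libraries, and these fits shared the spread of all 4 arms.

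**Figure D4:**
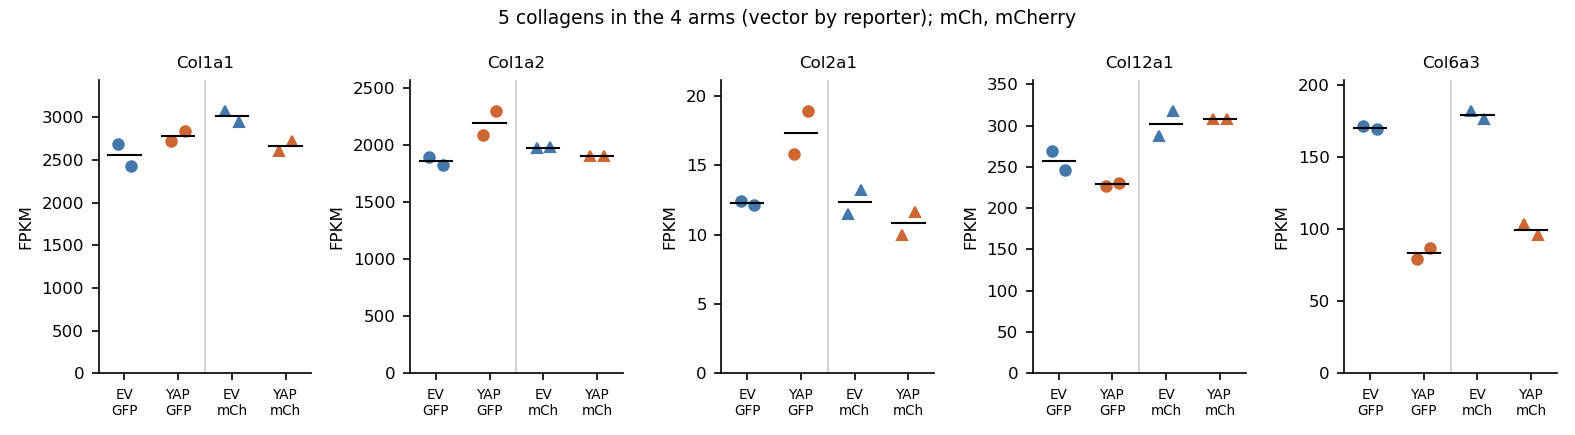
FPKM of Col1a1, Col1a2, Col2a1, Col12a1 and Col6a3 in the 4 arms made by vector and reporter, with points for the 2 libraries and a line at their mean, and axes that start at 0. Col6a3 was lower in YAP under both reporters, while Col1a1 and Col1a2 lay above EV in GFP and below it in mCherry.

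The authors' deposited table gives 1 FPKM value per pooled arm with a q-value. A q under 0.05 in the authors' deposited table was given for 9 collagens, 8 lower and 1 higher, beside 2.61% and 2.74% of the genes tested here. Of these, 5 were also called from the libraries (Col4a5, Col6a1, Col6a2, Col6a3 and Col18a1) and 4 were not (Col5a3, Col10a1, Col14a1 and Col27a1). The 4 called from the libraries alone had q-values of 0.110 (Col16a1), 0.201 (Col4a2), 0.256 (Col7a1) and 0.299 (Col4a1) in the authors' deposited table. The pooled control level was above the EV mean for every collagen with an EV mean above 0, by the least for Col10a1 at 1.06 times. The control arm of the authors' deposited table was 3.51 times the EV mean for Col4a1, 3.19 times for Col16a1 and 2.63 times for Col3a1, which gives a Col4a1 to Col4a2 ratio of 2.67 there and 1.10 in the libraries. In that control arm Col3a1, at 4284 FPKM, stood above Col1a1 at 3356 FPKM and Col1a2 at 2245 FPKM. In the YAP arm there Col3a1 was at 3216 FPKM, between Col1a1 at 3467 FPKM and Col1a2 at 2423 FPKM. The ranks and shares of collagens given above therefore hold for the per-library values only. In the authors' deposited table the Col6a3 to Col6a1 ratio was 0.857 in the control arm and 0.595 in the YAP arm. Its means over the libraries were 0.567 in EV and 0.414 in YAP. By the log2 ratio of mean FPKM, Col1a1 and Col15a1 had opposite signs in the authors' deposited table and the libraries. Col11a2 had the sign of the authors' deposited table by its mean FPKM but a fitted log2 difference of 0.04.

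**Figure D5:**
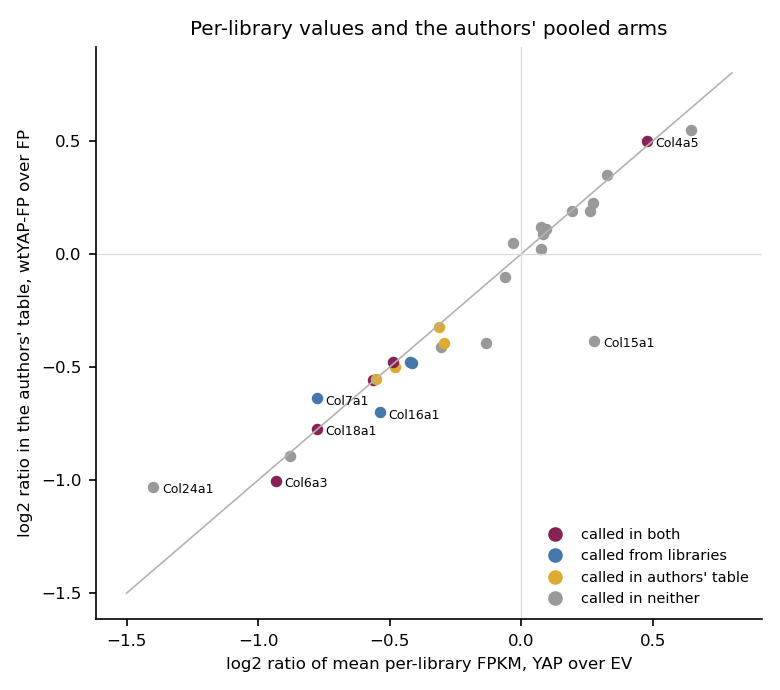
Log2 ratio of YAP over EV for each tested collagen from the mean per-library FPKM (x axis) and from the pooled arms in the authors' deposited table (y axis), with the line of equality. Most genes lie near the line, and Col15a1, Col24a1 and Col11a2 lie away from it.

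Genes that act on collagen were read from 6 lists. In the list of 20 tested genes for cross-linking and fibril regulation, 3 fell and 1 rose, beside 0.821% lower and 0.934% higher over all tested genes, with a median log2 difference of -0.077 against -0.0038 over all tested genes. Lum, a small proteoglycan that spaces fibrils, fell from 50.9 ± 4.66 to 20.6 ± 4.86 FPKM (log2 -1.31, adjusted p = 0.0122). Thbs2 fell from 104 ± 7.43 to 71.2 ± 4.80 FPKM (adjusted p = 0.0263) and Postn, a matricellular protein, from 272 ± 47.0 to 187 ± 27.7 FPKM (adjusted p = 0.0282). Lox, the lysyl oxidase that cross-links collagen, rose from 539 ± 16.4 to 726 ± 39.0 FPKM (log2 0.43, adjusted p = 0.0135).

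No gene passed in the other lists, beside 0.821% of all tested genes as lower and 0.934% as higher. At those shares, lists of this size would hold few calls. The folding and modification list had 18 tested genes, with a median of 0.022. Its smallest adjusted p values were 0.168 for Plod1 (log2 -0.23), 0.172 for P3h4 (log2 0.27), 0.244 for P4ha1 (log2 0.24) and 0.441 for Serpinh1 (log2 0.14). Serpinh1 encodes the collagen chaperone Hsp47. The export and propeptide list had 14 tested genes, a median of -0.023 and Pcolce2 at the smallest adjusted p (0.0783), at 2.82 ± 1.40 FPKM in EV and 9.79 ± 4.93 FPKM in YAP. The receptor list had 11 tested genes and a median of -0.12, with Ddr1, Cspg4, Antxr1 and Ddr2 at adjusted p of 0.114 to 0.150. Ddr1 (log2 0.29) and Ddr2 (log2 0.25) lay higher in YAP, and Cspg4 (log2 -0.45) and Antxr1 (log2 -0.43) lay lower. The collagenase and uptake list, which includes the Timp inhibitors, had 10 tested genes and a median of -0.045. Nearest to the threshold were Timp3 (log2 0.24, adjusted p = 0.0782) and Mmp13 (log2 -1.28, adjusted p = 0.0798). The list of transcriptional regulators had 23 tested genes and a median of -0.048, with Tgfbr2 (log2 0.23) at the smallest adjusted p of 0.161.

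Markers of fibroblasts and of other cell types moved in both directions, and their part in the results was not tested. Fibroblast markers summed to 4041 to 4375 FPKM in EV and 4045 to 6078 FPKM in YAP. Most of that sum was Vim, at 2863 ± 139 FPKM in EV and 3442 ± 813 FPKM in YAP (adjusted p = 0.469). Vim was highest in YAP replicate 4, at 4610 FPKM. Of 12 tested fibroblast markers, 1 was lower (Pdgfra, adjusted p = 0.0282), beside 0.821% of all tested genes. A log2 difference below 0 was found in 8 of the 12 and above 0 in 4. Macrophage and leukocyte markers summed to 319 to 453 FPKM in EV and 185 to 404 FPKM in YAP, with 3 of 16 lower (C1qa, C1qc and Ms4a7), beside 0.821% of all tested genes, and none at 0 in all libraries. Of these 16 markers, 13 had a log2 difference below 0, beside 50.7% of all tested genes. Epithelial and mesothelial markers summed to 24.6 to 35.6 FPKM in EV and 45.6 to 82.8 FPKM in YAP. Of 6 tested genes, 2 were higher (Krt7 and Msln), beside 0.934% of all tested genes. A log2 difference above 0 was found in 4 of the 6, and Krt18 (-0.34) and Wt1 (-0.19) were below 0. Epcam and Krt5 were listed at 0. Endothelial markers summed to 16.6 to 20.6 and 12.2 to 14.98 FPKM. Most of that sum was Erg, at 17.3 ± 1.57 FPKM in EV and 10.3 ± 0.874 FPKM in YAP, the 1 tested gene of 9 and lower in YAP (adjusted p = 0.0170). Kdr, at 0.552 ± 0.244 and 1.17 ± 0.0939 FPKM, and Tek, at 0.380 ± 0.210 and 1.41 ± 0.619 FPKM, were untested and lay higher in every YAP library than in every EV library, and Tie1 and Cldn5 were listed at 0. Pericyte and smooth muscle markers summed to 1498 to 1584 FPKM in EV and 1017 to 1526 FPKM in YAP. Of 5 tested genes, 1 was lower (Cnn1), beside 0.821% of all tested genes, and 4 had a log2 difference below 0. Most of the sum was Acta2 and Tagln. Acta2 was 934 ± 36.3 FPKM in EV and 470, 476, 843 and 819 FPKM across the YAP libraries (adjusted p = 0.120). Tagln was 540 ± 43.9 FPKM in EV and 565 ± 71.1 FPKM in YAP. Chondrocyte and bone markers summed to 12.2 to 15.1 and 8.98 to 11.3 FPKM with 0 of 4 past the threshold, and Matn1, Bglap and Ibsp were listed at 0. Schwann cell markers summed to at most 4.37 FPKM in any library, and of the muscle markers Myod1, Myog, Myf5 and Pax7 were listed at 0.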

How the data were processed

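RNA from 8 MEF libraries had been extracted with Trizol and made into stranded mRNA libraries, per the labels' protocols. The deposited values used here are gene-level FPKM in 1 column per library, per the file headers. The submitters' processing notes name TopHat and Cufflinks and the build mm10, with no versions. A deposited table of the authors with 1 FPKM per pooled arm and a p-value and q-value per gene was read for the authors' calls only. Table columns that matched no sample numbered 0.

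Identifiers that were repeated (49, on 114 rows, no collagen among them) were dropped, leaving 48527 genes. Those averaging at least 1 FPKM numbered 13276 and were tested. Values were log2(FPKM + 0.5), so fold changes of low genes are understated. Models with terms for reporter and vector were fitted with limma 3.58.1 (R 4.3.3) with a variance trend. Contrasts within each reporter and their difference came from 4 arm means. Adjustment was by Benjamini-Hochberg over all tested genes, with 0.05 as the threshold. The 7 chain ratios were tested with exact two-sided permutation tests of 4 against 4 libraries and adjusted over 7. The fit was tested on simulated data, with a looser bound on false calls than the threshold of 0.05.

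Coordinates are 1-based from GENCODE M21 (GRCm38, the assembly mm10 names), which held all 44 collagens. Promoter windows and motif letters come from RefSeq (GRCm38.p6). Alternatives were the pseudocount, level filter, scaling, variance trend, reporter term, replicate block, contrasts within single reporters and leaving out each library. Every collagen was accounted for, and other lists were named by up to 4 genes with the smallest adjusted p. Collagens and gene lists were chosen with earlier results of these data known. Same-numbered libraries did not deviate together (correlations of -0.015 to 0.090), so numbers were not treated as pairs. Depth in fragments was not used and is unknown, so no counting interval is given. Tables used Python 3.11.15, pandas 2.3.3, numpy 2.4.6 and scipy 1.17.1, and plots matplotlib 3.10.9.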

Additional observations from a re-analysis of the deposited data

Results flagged for a closer look

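Col15a1 was flagged in both vector groups because 1 library stood far from the other 3. EV replicate 2 was at 5.12 FPKM while the other EV libraries lay between 0.767 and 1.01 FPKM, and YAP replicate 4 was at 6.203 FPKM while the other YAP libraries lay between 0.878 and 1.19 FPKM. These were 2 of 58 groups of 4 libraries examined, and chance flags about 1 in 20. Col1a1 and Col1a2 were flagged because YAP libraries lay above both EV libraries in GFP and below both in mCherry. The mCherry effect minus the GFP effect was -0.30 on the log2 scale for Col1a1 (limma, adjusted p = 0.426) and -0.29 for Col1a2 (adjusted p = 0.416), so neither difference passed the threshold, and separation in opposite directions, counted either way round, was found in 7.58% of all tested genes.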

How the results depend on the processing

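The count of 8 lower and 1 higher collagens was the same with pseudocounts of 0.1 and 1, a minimum mean of 0.1 FPKM, quantile normalization and median-ratio factors. It was 6 lower with no filter, without Col4a1 and Col7a1, and 7 lower with no variance trend, without Col4a1 and Col4a2 and with Col24a1 added (adjusted p = 0.0220). Leaving out 1 library gave 2 to 6 lower, and 0 to 0 higher. Outside the main fit and the contrasts within each reporter, the share of all tested genes passing was not counted. No paired design is stated, and the replicate block left 1 lower collagen (Col6a3) and 0 higher. It gave the Col6a3 to Col6a1 ratio a difference of -0.45 with a p of 0.125, the smallest 4 pairs allow. EV replicate 1 correlated best with YAP replicate 2, so not every library correlated best with its own number. The contrast within mCherry gave 1 lower and 0 higher. Higher calls were also 0 within GFP, with no variance trend or with no reporter term. Both contrasts within a reporter came from a fit to all 8 libraries and shared its spread. The Col6a3 to Col6a1 ratio was -0.48 to -0.42 without 1 library, where the smallest possible exact permutation p is 0.0571. Some collagens that missed the threshold changed sign, and the cause was not tested. Col1a1 was 0.12 in GFP. In mCherry Col1a2 was -0.055, Col2a1 -0.18, Col9a3 -0.092 and Col12a1 0.030. In GFP Col5a2 was -0.025, Col8a1 -0.029, Col11a2 -0.044 and Col15a1 -0.86, and Col5a1 was -0.011 with quantile normalization. Without 1 library Col1a1 ranged from -0.086 to 0.016, Col9a3 from -0.19 to 0.27, Col11a2 from -0.31 to 0.35, Col15a1 from -0.42 to 0.82, Col5a1 to Col5a2 from -0.038 to 0.033 and Col4a1 to Col4a2 from -0.0020 to 0.021. Unknown fragment depth limits genes near 1 FPKM most.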
